A study of Mus musculus with 8 samples.

Results

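The BCL2 family apoptosis regulators described here are Bcl2, Bcl2l1, Bcl2l2, Bcl2l11, Mcl1, Bax, Bak1, Bad, Bid and Bbc3. Every row of the deposited signal table with 1 of these names as its gene symbol was taken, which gave 10 of the 18120 gene symbols and 27 of the 25697 probes. Their RNA was measured in glomeruli, the filtration units of the kidney, from 4 Cd151+/+ and 4 Cd151-/- mice, all male, of the FVB/N strain and 3 weeks of age, with no treatment stated. Cd151 encodes a tetraspanin, a membrane protein that associates with laminin-binding integrins, and the study compared the genotypes to look for early changes of RNA in Cd151-/- glomeruli. Each mouse had 1 Illumina MouseRef-8 v1.1 array, and the numbers 1 to 4 given to mice below run separately in each genotype. The glomeruli were isolated whole with magnetic beads, so each value is a mean over podocytes, endothelial cells, mesangial cells and whatever else was carried along, and fewer cells of a type cannot be told apart from less RNA per cell.

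Members of this family decide whether the outer membrane of the mitochondrion stays intact. Bax and Bak1 are the effectors, which assemble into pores that let cytochrome c out and so start the caspases. Bcl2, Bcl2l1 (BCL-XL), Bcl2l2 (BCL-W) and Mcl1 are the pro-survival members, which hold the effectors in check, and Bcl2l11 (BIM), Bad, Bid and Bbc3 (PUMA) are BH3-only proteins, which bind the pro-survival members or engage the effectors after stress. Podocytes divide little once mature, so their survival matters for the filter, and mice without Bcl2 develop abnormal, cystic kidneys. Outside the kidney, BCL-XL is known for keeping red cell precursors, platelets and neurons alive.

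Bcl2l1 was the only member with an unadjusted p below 0.05 between the genotypes, on each of its probes, and its start regions are shown for that reason. RefSeq gives 3 windows for it on GRCm38.p6, each 300 bases long and lying mostly upstream of a transcription start, and the arrays do not tell which start was used. The capitals mark the only match among them to the letters searched.

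Bcl2l1, chr2:152828440-152828739, minus strand: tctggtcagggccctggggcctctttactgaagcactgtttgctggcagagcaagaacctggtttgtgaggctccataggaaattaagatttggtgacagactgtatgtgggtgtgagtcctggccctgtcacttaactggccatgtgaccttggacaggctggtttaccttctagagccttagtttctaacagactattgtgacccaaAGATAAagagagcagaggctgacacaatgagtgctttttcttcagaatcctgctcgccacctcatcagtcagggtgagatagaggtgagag
Bcl2l1, chr2:152830668-152830967, minus strand: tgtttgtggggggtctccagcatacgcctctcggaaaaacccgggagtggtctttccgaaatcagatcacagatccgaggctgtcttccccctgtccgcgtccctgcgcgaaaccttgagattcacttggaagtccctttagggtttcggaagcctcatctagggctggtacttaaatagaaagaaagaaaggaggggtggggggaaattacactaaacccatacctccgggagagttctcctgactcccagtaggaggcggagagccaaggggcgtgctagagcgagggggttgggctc
Bcl2l1, chr2:152831679-152831978, minus strand: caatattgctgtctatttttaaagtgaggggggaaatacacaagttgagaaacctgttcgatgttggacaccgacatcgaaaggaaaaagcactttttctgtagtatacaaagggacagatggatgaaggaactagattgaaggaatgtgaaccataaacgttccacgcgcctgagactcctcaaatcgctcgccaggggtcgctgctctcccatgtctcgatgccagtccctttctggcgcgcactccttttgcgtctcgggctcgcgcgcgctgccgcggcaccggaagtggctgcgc

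The letters searched, on both strands, were TGANTCA for AP-1, the Fos and Jun factors, AGATAA for GATA factors and TGACGTCA for the cyclic AMP response element. AGATAA was found in 1 of the 3 Bcl2l1 windows, the one at the lowest coordinates, and in 1 of the 16 windows of all 10 members. Of 32851 mouse promoters of the same length, 11.2% hold AGATAA, 7.81% hold TGANTCA and 1.79% hold TGACGTCA. Neither TGANTCA nor TGACGTCA was found in any of the 16 windows. A match is a description of the letters only.

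The targeted gene followed its labels, since each of the 3 Cd151 probes was detected on 4 of 4 Cd151+/+ and 0 of 4 Cd151-/- arrays, and the brightest was at least 523-fold lower in Cd151-/- mice (adjusted p = 6.51e-10, limma). Podocyte RNA was abundant in both genotypes, with Cdkn1c, a cell cycle inhibitor of mature podocytes, whose normalised log2 signal averaged 15.50 ± 0.05 in Cd151+/+ and 15.46 ± 0.11 in Cd151-/- mice (SD over 4 mice each). The 6 tested podocyte markers were all nominally lower, with a median difference of -0.21, and none had an unadjusted p below 0.05. Their differences ran from -0.43 to -0.04, the latter for Cdkn1c. Their summed normalised signal was 102149 to 109124 in Cd151+/+ mice and 87538, 94725, 110942 and 94505 in Cd151-/- mice 1 to 4. The arrays lay in a pair of sets by the brightness of their background, in deposited signal units 59.0 to 69.5 for the first 2 Cd151+/+ and the last 2 Cd151-/- mice, and 123 to 135 for the other 4. Each set held 2 mice of each genotype, so differences are also given within each set. Between 11291 and 12359 probes were detected per array, and precision is limited by how few arrays there were.

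No member passed Benjamini-Hochberg adjustment over the 14967 probes that at least 1 array detected. Of the 27 member probes 21 were tested, and the other 6, of which 4 were for Bcl2 and 2 for Bcl2l11, were detected on no array. All 10 genes had a probe that was detected on all 8 arrays. The lowest adjusted p among the member probes was 0.918 (limma with Benjamini-Hochberg adjustment), against 0.0334% of all tested probes past 0.05. At an unadjusted p of 0.05, 3 member probes were lower in Cd151-/- mice and 0 were higher, while 2.61% of all tested probes were lower and 1.69% higher, together 4.3%. All 3 were probes for Bcl2l1. With limma's array weights 7 member probes were lower and 3 higher and none passed adjustment, but in that fit 32.2% of all tested probes had an unadjusted p below 0.05, 16.6% lower and 15.6% higher. Over the 10 genes, taking the brightest tested probe of each, 5 differences were negative and 5 positive, with a median of -0.03 on the log2 scale against -0.0017 over the 11104 genes tested, of which 50.3% were negative. The genotypes overlapped for 10 of these 10 probes, whereas they did not overlap for 2.27% of all tested genes. By role, the median difference was -0.14 for the 4 pro-survival genes, -0.12 for the 2 effectors and 0.07 for the 4 BH3-only genes.

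**Figure D1:**
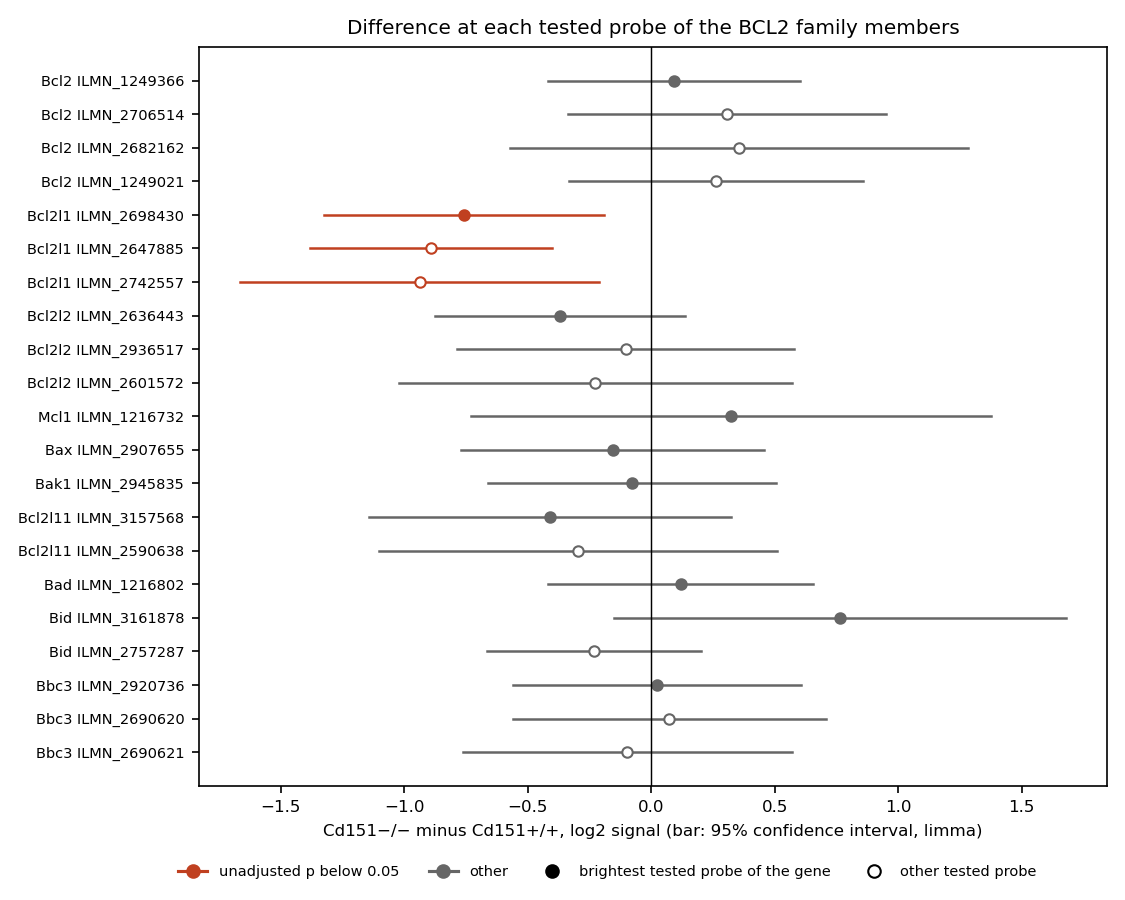
Difference between the genotypes at the 21 tested member probes, in log2 signal, with the 95% confidence interval of the limma fit as a bar. The 3 Bcl2l1 probes, in red, are the only ones with an unadjusted p below 0.05, and their intervals lie below 0. Filled points stand for the brightest tested probe of a gene.

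Bcl2l1, which encodes the pro-survival protein BCL-XL, was lower in Cd151-/- glomeruli on all 3 of its probes before adjustment for multiple testing. Its brightest probe, ILMN_2698430, read 9.05, 9.18, 8.77 and 8.85 in Cd151+/+ mice 1 to 4 and 7.70, 8.11, 8.82 and 8.20 in Cd151-/- mice 1 to 4. Cd151-/- mouse 3 lay among the Cd151+/+ mice and the other 3 Cd151-/- mice lay below all of them. The means were 8.96 ± 0.19 and 8.21 ± 0.46 (SD, n = 4 per genotype), a difference of -0.76 on the log2 scale with a standard error of 0.26 and a 95% confidence interval of -1.33 to -0.19. That is 1.69-fold lower on the normalised signal, to which an offset of 16 had been added, so that the fold of a dim probe is understated. The unadjusted limma p was 0.0136 and the adjusted p was 0.918, with a two-sided exact permutation p of 0.0571. The probe was 163rd in order of p among the 14967 tested.

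The second probe, ILMN_2647885, separated the genotypes. It read 7.42, 7.48, 7.36 and 7.44 in Cd151+/+ mice and 6.30, 6.68, 6.97 and 6.20 in Cd151-/- mice. The Cd151+/+ mice lay within a narrow band and the Cd151-/- mice all lay below it, whereas 2.31% of all tested probes separated the genotypes in either direction. The difference was -0.89 with a standard error of 0.22 and an interval of -1.38 to -0.40 (unadjusted p = 0.00212, adjusted p = 0.918, limma). The exact permutation p was 0.0286, the smallest that 4 mice against 4 can give, and the probe was 30th in order of p.

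The dimmest probe, ILMN_2742557, read 6.16, 6.83, 7.38 and 7.16 in Cd151+/+ mice and 6.09, 6.25, 6.28 and 5.17 in Cd151-/- mice, and was detected on 4 and 3 arrays. Cd151+/+ mouse 1 lay among the Cd151-/- mice, and Cd151-/- mouse 4 lay far below the rest. The difference was -0.94 with a standard error of 0.33 and an interval of -1.66 to -0.21 (unadjusted p = 0.0163, adjusted p = 0.918, limma), and the exact permutation p was 0.0857. Without Cd151+/+ mouse 3 its unadjusted p was 0.0521.

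Within the arrays of lower background the Bcl2l1 differences were -0.61, -0.87 and -0.77 for the 3 probes in the order above, and within those of higher background -0.91, -0.91 and -1.10. These values split the differences given above and come from the same gene and mice, so they are not independent of each other. With the background set as a block the unadjusted p became 0.00299, 0.00123 and 0.00521, and the lowest adjusted p of any member was 0.326 (limma), while the share of all tested probes at an unadjusted p of 0.05 was 11.3% in that fit, 6.08% lower and 5.21% higher. Bcl2l1 is among the genes that the study listed from these same arrays, so its values are not independent evidence of that listing.

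**Figure D2:**
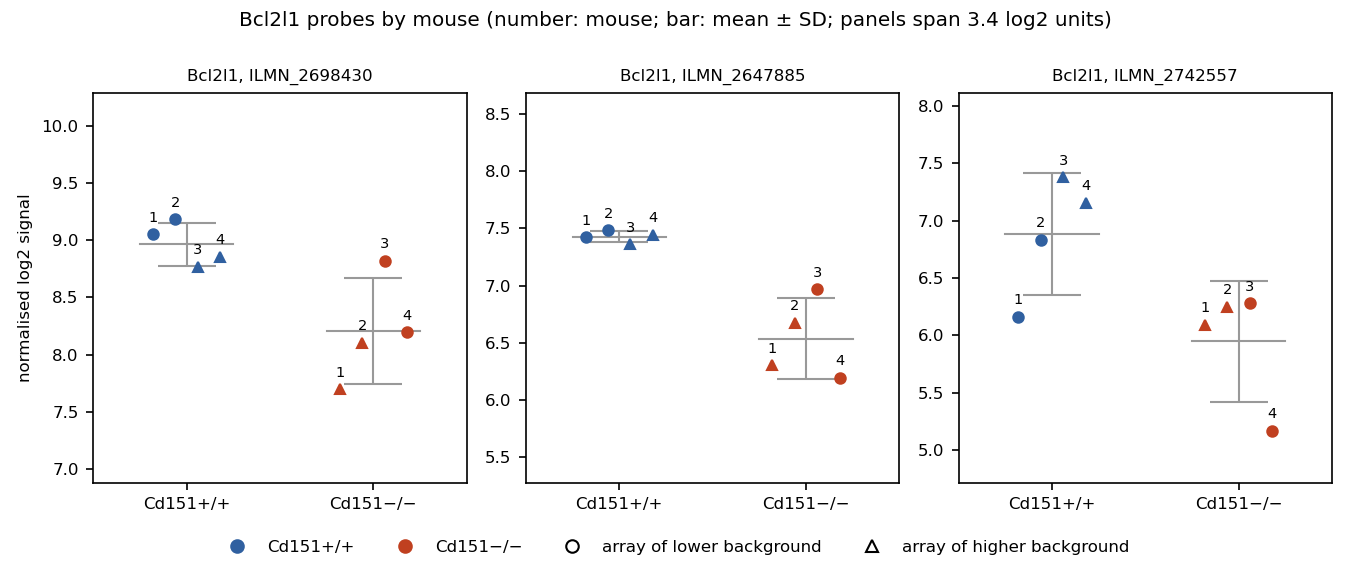
Normalised log2 signal of the 3 Bcl2l1 probes in each mouse, with the mean and SD of each genotype as grey bars, mouse numbers beside the points, and triangles for arrays of higher background. Only the middle probe shows no overlap, with Cd151+/+ mice at 7.36 to 7.48 and Cd151-/- mice at 6.20 to 6.97.

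Markers of other cell types varied over the same mice. Of 10 glomerular endothelium markers, 9 were nominally lower in Cd151-/- mice, with a median difference of -0.39, 0 at an unadjusted p of 0.05 and 0 past adjustment (limma). Their mean log2 signal was 11.21, 11.38, 10.89 and 10.86 in Cd151+/+ mice and 10.43, 10.83, 11.29 and 10.45 in Cd151-/- mice. Cd151-/- mouse 3, the highest of its genotype for the brightest Bcl2l1 probe, was also the highest for these markers. Their summed normalised signal was 41519 to 53696 for Cd151+/+ and 27423 to 52926 for Cd151-/- mice, and all but Kdr, which encodes a VEGF receptor and was detected on 2 and 0 arrays, were detected on all 8 arrays. Cd151-/- mouse 3 was likewise the highest of its genotype in the mean log2 signal of the mesangium and smooth muscle markers. It was at 10.40, against 9.23 to 10.19 in the other Cd151-/- mice. For the podocyte markers it was the highest of its genotype in summed signal, but Cd151-/- mouse 2 was higher in the mean, at 12.69 against 12.36. The part of any of these markers in the Bcl2l1 difference was not tested.

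Of 7 tested erythroid markers 6 were nominally lower, with a median of -0.36, and 2 had an unadjusted p below 0.05, both lower. Of all tested genes 2.46% were lower at that p and 1.9% higher. Some of the 7 were dim, with Hbb-b1 at 4.51 to 5.38 and Klf1 at 4.74 to 5.85 over all mice. Hbb-b2 ran from 4.44 to 7.91. Alas2, the first enzyme of haem synthesis in red cells, read 9.16, 9.80, 9.29 and 10.31 in Cd151+/+ and 6.03, 9.68, 7.08 and 5.49 in Cd151-/- mice. Its difference was -2.57 with a standard error of 0.74 (unadjusted p = 0.00519, adjusted p = 0.918, limma), and Cd151-/- mouse 2 lay among the Cd151+/+ mice. Hba-a1, an alpha globin gene, differed by -0.69 (unadjusted p = 0.0276, adjusted p = 0.918, limma). The mean log2 signal of the erythroid markers overlapped between the genotypes, at 8.24, 8.47, 8.55 and 8.86 in Cd151+/+ and 7.57, 8.98, 7.66 and 7.48 in Cd151-/- mice. Cd151-/- mouse 2 was above every Cd151+/+ mouse and the other 3 were below. Their summed signal, to which Hba-a1 gave the most, was 39863 to 51020 in Cd151+/+ and 18521 to 38213 in Cd151-/- mice, and their part in the Bcl2l1 difference was not tested.

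Immediate early genes, which respond within minutes to stimulation, were nominally lower for 13 of 14 tested, with a median of -0.81. Unadjusted p-values below 0.05 were found for 4 of them, which were Jund1, Jun, Junb and Zfp36, all lower, with differences of -1.09, -1.06, -1.48 and -0.99. Among all tested genes 2.46% were lower at that p and 1.9% higher. Jund1 read 9.04, 8.95, 8.43 and 8.90 in Cd151+/+ and 7.72, 8.26, 7.74 and 7.23 in Cd151-/- mice, without overlap (unadjusted p = 0.00143, adjusted p = 0.905, limma). The genotypes were without overlap for 2.27% of all tested genes. In the mean over the immediate early genes, Cd151-/- mouse 2 was at 11.07, above every Cd151+/+ mouse, and Cd151-/- mice 1, 3 and 4 were at 10.19, 9.81 and 8.87, below the Cd151+/+ range of 10.56 to 11.02. Their summed signal was 53093 to 68648 in Cd151+/+ and 17953 to 70089 in Cd151-/- mice, and their part in the Bcl2l1 difference was not tested.

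The 5 genes most like the brightest Bcl2l1 probe over the 8 arrays, by Pearson correlation of log2 signal, were 5930405J04Rik, Plscr4, Fkbp8, Tspan7 and Snrk, with r of 0.99, 0.98, 0.98, 0.98 and 0.97. After removal of the genotype means, r was 0.98, 0.96, 0.96, 0.99 and 0.96, on the same arrays from which the genes were chosen. The 5 genes were picked as the highest of all tested probes and describe 8 arrays that share a genotype and a background set in part. All 5 were nominally lower in Cd151-/- mice, as a gene chosen for this pattern must tend to be, from -0.38 for 5930405J04Rik to -1.08 for Snrk.

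Bcl2l2, encoding the pro-survival protein BCL-W, read 12.51, 12.44, 11.85 and 12.05 in Cd151+/+ and 11.62, 11.92, 12.12 and 11.71 in Cd151-/- mice on its brightest probe, ILMN_2636443. The genotypes overlapped, with Cd151+/+ mice 1 and 2 above all others. The difference was -0.37 with a standard error of 0.23 and an interval of -0.88 to 0.14 (unadjusted p = 0.136, limma). Its other probes differed by -0.10 and -0.23, the latter detected on only 3 and 1 arrays. On the brightest probe the difference was -0.56 within the arrays of lower and -0.18 within those of higher background.

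Mcl1, a pro-survival protein with a short life in the cell, had the widest spread among the brightest member probes, with a within-genotype SD of 0.85, larger than that of 94.7% of the tested probes. It read 9.41, 9.03, 10.93 and 10.46 in Cd151+/+ and 10.68, 11.21, 9.63 and 9.60 in Cd151-/- mice. The genotypes overlapped, and the mice split instead by the background of their arrays. The difference between genotypes was 0.32 with a standard error of 0.48 and an interval of -0.73 to 1.38 (unadjusted p = 0.514, limma), which leaves room for a change in either direction. Within the arrays of lower and of higher background it was 0.39 and 0.25. It was 0.011 without Cd151-/- mouse 2, 0.65 without Cd151+/+ mouse 3, and 1.05 with array weights, with an unadjusted limma p of 0.0232.

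Bcl2 itself was more even, at 8.17, 8.09, 7.64 and 7.90 in Cd151+/+ and 7.82, 8.37, 8.26 and 7.73 in Cd151-/- mice on ILMN_1249366. The genotypes overlapped and differed by 0.09 with a standard error of 0.23 and an interval of -0.42 to 0.60 (unadjusted p = 0.695, limma). The other 3 tested Bcl2 probes differed by 0.31, 0.35 and 0.26, all positive and each with an interval that included 0. The probe at 0.35 was detected on 3 Cd151+/+ and 3 Cd151-/- arrays, and the probe at 0.26 on 0 and 1. The brightest probe differed by -0.13 within the arrays of lower and by 0.32 within those of higher background, opposite in sign.

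Neither of the pore-forming effectors had an unadjusted p below 0.05 between the genotypes. Bax read 11.06, 11.07, 10.52 and 10.49 in Cd151+/+ and 10.22, 10.27, 11.22 and 10.81 in Cd151-/- mice, and the highest and the lowest mice were both Cd151-/-. Its difference was -0.16 with a standard error of 0.28 and an interval of -0.77 to 0.46 (unadjusted p = 0.587, limma). Bak1 read 6.18, 6.49, 5.87 and 6.08 in Cd151+/+ and 5.74, 6.11, 6.72 and 5.75 in Cd151-/- mice. These overlapped too, and the difference was -0.08 with a standard error of 0.26 and an interval of -0.66 to 0.51 (unadjusted p = 0.778, limma). Within the arrays of lower and of higher background the differences were -0.05 and -0.26 for Bax and -0.10 and -0.05 for Bak1. Both values rested on single mice and on the weighting of arrays. With a mouse left out the Bax difference was -0.35 (without Cd151-/- mouse 3) to -0.017 (without Cd151-/- mouse 1), and with array weights it was -0.55 with an unadjusted limma p of 0.0362. The Bak1 difference was -0.30 to 0.038 without those same mice, and -0.32 with array weights.

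**Figure D3:**
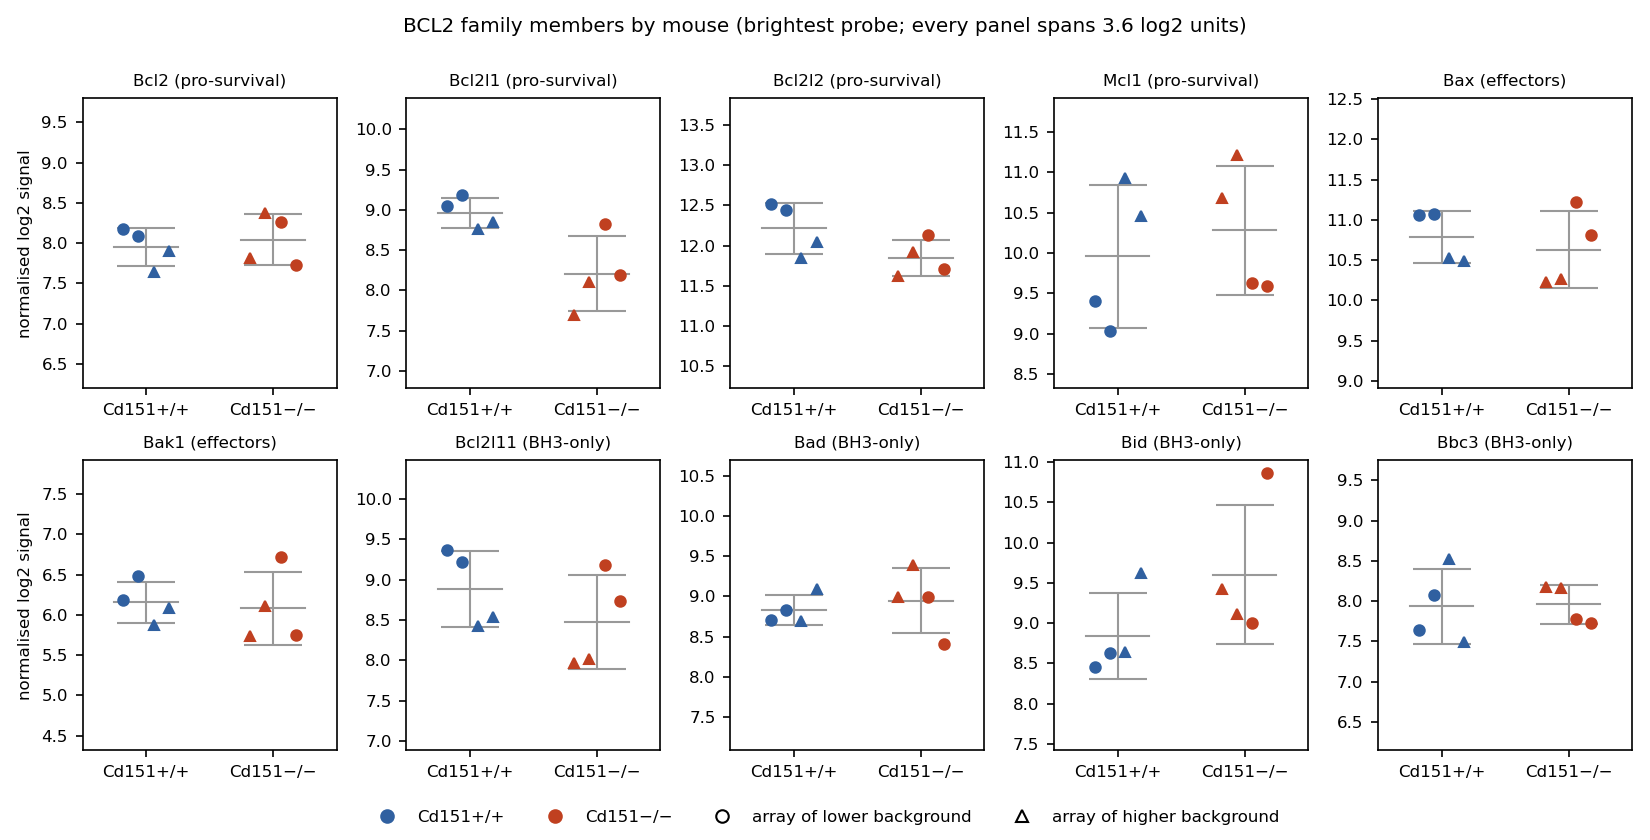
Normalised log2 signal of the brightest tested probe of each of the 10 members in each mouse, with the mean and SD of each genotype as grey bars and triangles for arrays of higher background. All panels span the same range in log2 units. The genotypes overlap in all 10 panels, and the Bcl2l1 panel has 3 of 4 Cd151-/- mice below every Cd151+/+ mouse.

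Among the BH3-only genes, Bid had the largest difference, toward higher signal in Cd151-/- mice. Bid, which is cut by caspase-8 and links death receptors to the mitochondrion, read 8.46, 8.63, 8.64 and 9.63 in Cd151+/+ and 9.42, 9.12, 9.01 and 10.86 in Cd151-/- mice on ILMN_3161878. Of the Cd151-/- mice 4 of 4 lay above Cd151+/+ mice 1 to 3, and only Cd151+/+ mouse 4 overlapped with them. The means were 8.84 ± 0.53 and 9.60 ± 0.86, and the difference was 0.76 with a standard error of 0.42 and an interval of -0.15 to 1.68 (unadjusted p = 0.0933, adjusted p = 0.918, limma). The exact permutation p was 0.171. The difference was 1.39 within the arrays of lower background and 0.14 within those of higher background, 1.03 without Cd151+/+ mouse 4, with an unadjusted limma p of 0.0346, and 0.34 without Cd151-/- mouse 4. The other Bid probe, detected on 2 and 0 arrays, differed by -0.23.

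Proximal tubule markers were high in the same mice as Bid. Of 13 tested proximal tubule markers 13 were nominally higher in Cd151-/- mice, with a median of 0.64. At an unadjusted p of 0.05, 2 were higher and 0 lower, where 1.9% of all tested genes were higher and 2.46% lower. These were Slc22a8, an organic anion transporter detected on 1 Cd151+/+ and 4 Cd151-/- arrays, and Kap, an androgen-regulated kidney protein, with differences of 1.45 and 1.38. The mean log2 signal of the 13 markers was 8.08, 8.56, 8.96 and 9.25 in Cd151+/+ and 9.60, 8.97, 9.11 and 10.19 in Cd151-/- mice, and mouse 4 was the highest of each genotype for these markers as for Bid. Their summed signal was 21756 to 64159 in Cd151+/+ and 43844 to 81059 in Cd151-/- mice. Lrp2, which encodes megalin, was detected on 0 and 2 arrays, while Slc34a1, the phosphate transporter, was detected on all 8. Their part in the Bid values was not tested.

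**Figure D4:**
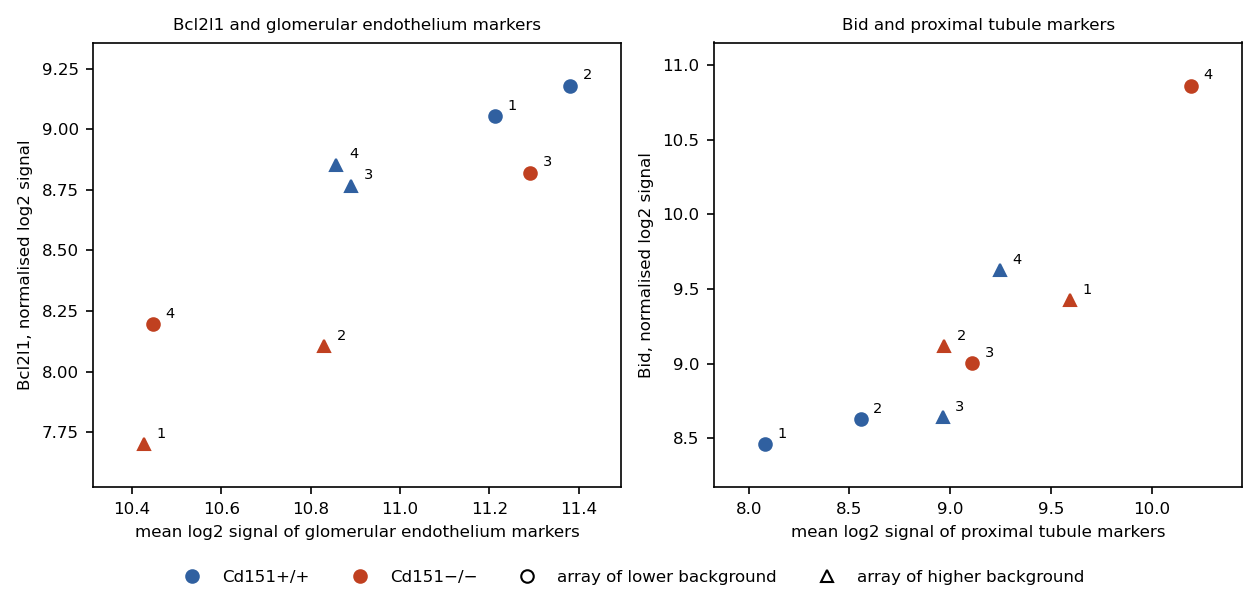
Left, the brightest Bcl2l1 probe against the mean log2 signal of 10 glomerular endothelium markers, and right, the brightest Bid probe against that of 13 proximal tubule markers, 1 point per mouse with its number. Cd151-/- mouse 3 is the highest of its genotype on both axes at left, and mouse 4 is the highest of each genotype on both axes at right.

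Bcl2l11, encoding BIM, read 9.36, 9.22, 8.42 and 8.54 in Cd151+/+ and 7.97, 8.02, 9.18 and 8.74 in Cd151-/- mice on its brightest probe. The genotypes overlapped and differed by -0.41 with a standard error of 0.33 and an interval of -1.14 to 0.32 (unadjusted p = 0.244, limma). Within the arrays of lower background the difference was -0.33 and within those of higher background -0.49, and with the background set as a block its unadjusted p was 0.0313 and its adjusted p 0.417. The second tested Bcl2l11 probe differed by -0.30.

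Bad, whose protein is held inactive by phosphorylation downstream of growth factors, read 8.71, 8.83, 8.69 and 9.09 in Cd151+/+ and 8.99, 9.40, 8.99 and 8.41 in Cd151-/- mice. Both the highest and the lowest mouse were Cd151-/-, and the difference was 0.12 with a standard error of 0.24 and an interval of -0.42 to 0.66 (unadjusted p = 0.636, limma). Bbc3, a target of p53, read 7.64, 8.07, 8.53 and 7.49 in Cd151+/+ and 8.17, 8.16, 7.78 and 7.72 in Cd151-/- mice. The Cd151-/- mice lay inside the Cd151+/+ range, and the difference was 0.02 with a standard error of 0.26 and an interval of -0.56 to 0.61 (unadjusted p = 0.927, limma). Its other probes differed by 0.07 and -0.10, the former detected on 3 Cd151+/+ and 4 Cd151-/- arrays and the latter on 2 and 1. Both genes differed in sign between the sets of arrays, with -0.06 and 0.30 for Bad and -0.11 and 0.16 for Bbc3 at lower and at higher background. Of the 14 member probes detected on all 8 arrays, 8 had an interval within 1 log2 unit of 0 on either side, on the scale that includes the offset.

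The background of the array separated some members more widely than the genotype did. Mcl1 was at 10.46 to 11.21 on the arrays of higher background and at 9.03 to 9.63 on those of lower background, a difference of 1.41. Bax went the other way, at 10.22 to 10.52 against 10.81 to 11.22, and so did Bcl2l11, at 7.97 to 8.54 against 8.74 to 9.36 on its brightest probe. Both tested Bcl2l11 probes were without overlap, the second at 6.49 to 7.32 against 7.51 to 8.19. By their brightest probes these were 3 of 10 member genes. With a dim probe each for Bcl2 and Bbc3, 6 of 21 member probes were without overlap between the sets. Both shares were close to the 24.7% of all tested genes and 25.2% of all tested probes without such overlap. Each set held both genotypes, and what else differed between the sets was not tested.

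**Figure D5:**
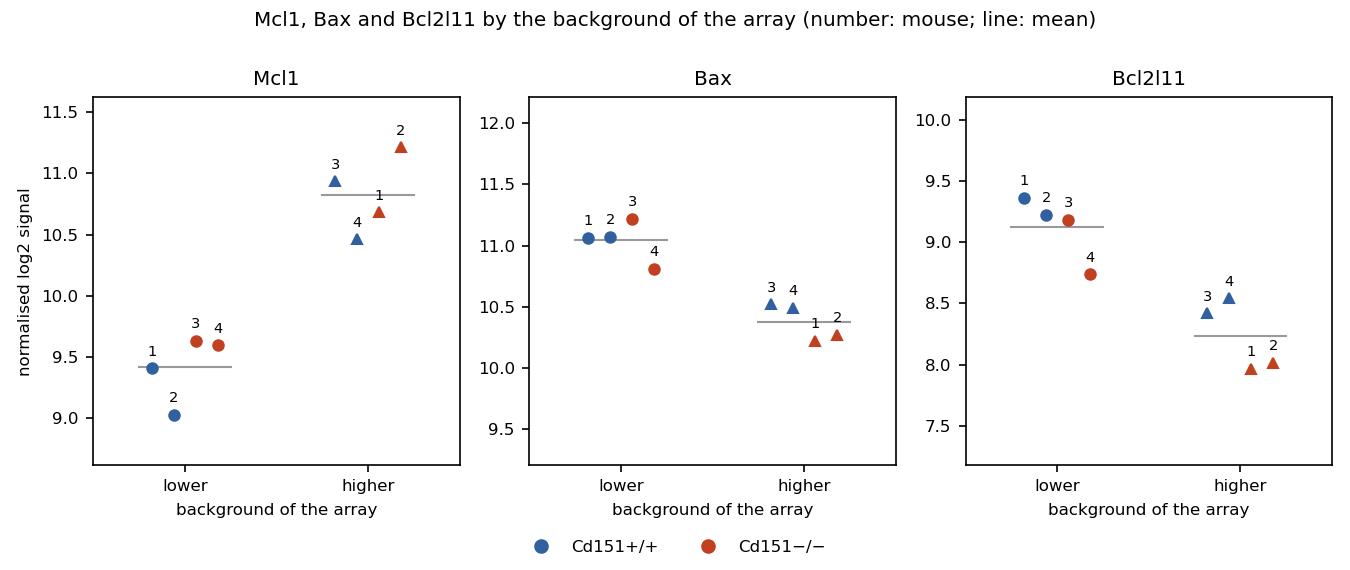
Normalised log2 signal of the brightest Mcl1, Bax and Bcl2l11 probes by the background of the array, 1 point per mouse with its number, and the mean of each set as a line. The sets do not overlap in any of the 3 panels, with Mcl1 higher and Bax and Bcl2l11 lower on the arrays of higher background.

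Beyond the 10 members, 15 of 18 further BCL2 family genes had a probe, and 9 were tested. Their differences were positive for 6 and negative for 3, with a median of 0.06, and 1 was higher at an unadjusted p of 0.05 and 0 were lower, where 1.9% of all tested genes were higher and 2.46% lower, together 4.36%. The gene was Bok, which encodes a pore-forming relative of Bax and Bak1. It read 5.74, 6.47, 8.00 and 7.07 in Cd151+/+ and 9.09, 8.88, 7.14 and 7.42 in Cd151-/- mice on its brighter probe. The genotypes overlapped, with arrays of higher background higher in both, and within each set the Cd151-/- mice lay above the Cd151+/+ mice. The difference was 1.32 with a standard error of 0.54 and an interval of 0.12 to 2.51 (unadjusted p = 0.0339, adjusted p = 0.918, limma), with an exact permutation p of 0.114. It was 1.18 within the arrays of lower and 1.45 within those of higher background. The dimmer Bok probe, detected on 2 and 4 arrays, was at 5.37 ± 0.31 in Cd151+/+ and 6.05 ± 0.27 in Cd151-/- mice without overlap, a difference of 0.68 (unadjusted p = 0.0147, adjusted p = 0.918, limma). Of all tested probes 2.31% were without overlap between the genotypes.

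Genes that act above and below the family were mostly without an unadjusted p below 0.05. Of 14 tested genes of the apoptosome and caspases, which carry out the death signal after cytochrome c release, 8 were positive, the median was 0.02 and 0 had an unadjusted p below 0.05 in the limma fit, and 0 passed adjustment. Of 3 tested inhibitor of apoptosis genes 0 did so, and of 9 tested genes of p53 and its apoptotic targets 0 did so, with medians of 0.47 and -0.02. The 0.47 is the value of 1 dim gene, detected on 0 Cd151+/+ and 2 Cd151-/- arrays. Of 21 tested partners and regulators of the family 14 were negative, with a median of -0.07. At an unadjusted p of 0.05, 1 was lower and 0 higher, where 2.46% of all tested genes were lower and 1.9% higher. That gene was Dynll2, listed as 6720463E02Rik, a dynein light chain that binds the BH3-only protein BMF, at 9.42, 9.50, 9.92 and 9.78 in Cd151+/+ and 8.84, 9.20, 8.84 and 8.63 in Cd151-/- mice. The genotypes did not overlap, as for 2.27% of all tested genes. The difference was -0.78 with a standard error of 0.22 (unadjusted p = 0.00446, adjusted p = 0.918, limma), -0.72 within the arrays of lower and -0.83 within those of higher background.

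The death receptor pathway, which reaches the mitochondrion through Bid, was nominally lower for 7 of 8 tested genes, with a median of -0.27, and 2 were lower at an unadjusted p of 0.05. By comparison 2.46% of all tested genes were lower at that p and 1.9% higher. The median lies midway between 2 dim genes, at -0.31 and -0.22. The first was detected on 2 Cd151+/+ and 1 Cd151-/- arrays, and the second on 0 and 1. Tnfrsf1a, the receptor for tumour necrosis factor, read 8.92, 8.80, 8.38 and 8.50 in Cd151+/+ and 8.05, 8.36, 8.28 and 7.82 in Cd151-/- mice, without overlap. Such separation was found for 2.27% of all tested genes. The Tnfrsf1a difference was -0.53 with a standard error of 0.22 (unadjusted p = 0.0371, adjusted p = 0.918, limma), and its other 2 probes differed by -0.49 and -0.47. Within the arrays of lower and of higher background the difference was -0.81 and -0.24. Tnfrsf10b, a receptor for TRAIL, differed by -0.61 with a standard error of 0.25 on its brightest probe (unadjusted p = 0.0339, adjusted p = 0.918, limma), while its other tested probe, detected on 1 array, differed by 0.02. Of 6 tested mesangium and smooth muscle markers, with a median of -0.20, 1 was lower at an unadjusted p of 0.05, Pdgfrb, a receptor for platelet-derived growth factor, with a difference of -0.74 (unadjusted p = 0.0399, adjusted p = 0.918, limma). The 9 tested leukocyte markers had a median of 0.01.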

How the data were processed

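Glomerular RNA of 8 mice was measured on 1-colour bead arrays, 1 mouse per array. The authors deposited each probe's raw signal intensity per array, with neither background subtraction nor normalisation, and a detection p-value set by the array's negative-control probes. GenomeStudio is the tool named in the submitters' notes, and its version is not given in the sources used here. In R 4.3.3 with limma 3.58.1, array backgrounds were inferred from the deposited detection p-values and the signals were passed through neqc (offset 16, quantile normalisation, log2). Quantile normalisation gives every array the same distribution, so levels are relative to the other probes of the array. Every probe with 1 or more detection p-values at or under 0.05 was fitted with lmFit and eBayes, Cd151-/- minus Cd151+/+, with Benjamini-Hochberg adjustment over all of them. Exact permutation tests of single probes used all 70 relabelings and were two-sided. A fold against a group without detection is a bound against the lowest detected signal. Groups came from the sample labels. The study's own test, SAM on cubic-spline values, was not run.

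The members, the other gene lists, the background sets and the tests were chosen with earlier results of these data known. Named genes are all member probes, genes of the other lists with an unadjusted p below 0.05 (at most the 4 smallest per list), erythroid and immediate early genes, and the 5 probes most like Bcl2l1. The brightest tested probe stands for a gene. Symbols were matched to a RefSeq gene table, 12036 directly and 5204 through a synonym. Alternatives were signals without normexp, cubic spline, an offset of 50, scaling to the 75th percentile, other detection filters, the mouse number or the background set as a block, a trended robust variance, array weights, no eBayes, a mean over probes, and each mouse left out. The procedure was tested on simulated data. Between mice of the same number the correlations of deviations were -0.58, -0.40, -0.53 and -0.0086. Each number joined an array of lower and an array of higher background, so these correlations cannot tell whether the numbers paired the samples. Protein sequences were not used here. The result of 1 single gene, which is among the counts of its list, is not reported here.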

Additional observations from a re-analysis of the deposited data

Results flagged for a closer look

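Among 42 groups of 4 mice over the tested member probes, 3 held a mouse that stood apart from the other 3 by Dixon's ratio at the 95% level, where chance gives about 1 in 20 groups. Cd151-/- mouse 4 was at 5.17 on the dimmest Bcl2l1 probe, ILMN_2742557, against 6.09 to 6.28 in the other Cd151-/- mice. Cd151+/+ mouse 4 was at 9.50 on the second Bcl2l2 probe, ILMN_2936517, against 8.84, 8.88 and 8.92 in the other Cd151+/+ mice. Cd151+/+ mouse 4 was also at 9.63 on the brightest Bid probe, ILMN_3161878, against 8.46 to 8.64.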

How the results depend on the processing

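Over the 20 alternatives, Bcl2l1 differed by -1.08 to -0.59 with an unadjusted p below 0.05 in all 20, and its adjusted p ranged from 0.0885, with array weights, to 1.00. No member passed adjustment in any of the 200 combinations of a member and a setting, and 11 combinations had the opposite sign, all for genes with differences close to 0. These were for Bcl2 (-0.016 to 0.20 with a mouse left out and -0.046 with array weights), Bak1 (-0.30 to 0.038), Bad (-0.030 to 0.29) and Bbc3 (-0.12 to 0.22). With a mouse left out, Mcl1 differed by 0.011 to 0.65 and Bax by -0.35 to -0.017, 2 to 3 member probes were lower and 0 to 1 higher at an unadjusted p of 0.05, 0 to 0 passed adjustment, and the median over the 10 genes was -0.14 to 0.07. The 2 lower probes were without Cd151+/+ mouse 3 and the 1 higher probe, for Bid, was without Cd151+/+ mouse 4. Over all tested probes, 339 to 1391 had an unadjusted limma p below 0.05 with a mouse left out. They were 778 of 14783 without Cd151+/+ mouse 3 and 980 of 14776 without Cd151+/+ mouse 4. With array weights, under which 32.2% of all tested probes had an unadjusted p below 0.05 against 4.3% without them, 7 member probes were lower, 3 of them for Bcl2l1, 2 for Bcl2l11 and 1 each for Bax and Bcl2l2, and 3 were higher, for Bcl2, Bid and Mcl1, with Mcl1 at 1.05, Bcl2l11 at -0.92 and Bax at -0.55, and the cause was not tested. With the mouse number as a replicate block, 1 probe was higher, the brightest Bid probe. Each mouse number joined arrays of both background sets, and the unadjusted limma p with the replicate block was 0.0229 for Bid and 0.0400 for Bcl2l1. In that fit 420 of the 14967 tested probes had an unadjusted limma p below 0.05. No other alternative moved a count of member probes by over 1.5 times. The small number of arrays and signals near background, at which 7 of the 21 tested member probes were not detected on every array, limit the precision.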
